A study of Mus musculus with 6 samples.

Results

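The receptors of the interleukin 1 family were examined in activated mouse T cells. They were chosen by name as 8 genes, Il1r1, Il1r2, Il1rl1, Il1rap, Il18r1, Il18rap, Il1rl2 and Sigirr, and each was found once by its Ensembl identifier among the 52550 genes measured. Their 41 annotated transcripts were taken from 131146, and 31 of the 41 held a count in at least 1 sample. RNA sequencing was done on 6 samples of CD3+ T cells from the spleens of wild-type (WT) mice, all of them activated through the T cell receptor with anti-CD3/CD28 for 24 h. Cells of 3 samples received the activator only (TCR alone), and cells of the other 3 also received dimethylguanidino valeric acid, a breakdown product of methylated arginine, at 100 ng/ml (TCR+DMGV). The labels name the compound DMGV, whereas the study's own account of a 24 h experiment of the same layout names LNY1, its term for the methylated arginines ADMA and SDMA. The study's methods describe its mice as young adults of both sexes and name C57BL among the strains bought, but neither they nor the labels tie a strain to these samples or say whether animals were pooled. Splenic T cells were isolated magnetically there and checked for CD3 by flow cytometry, with nearly all cells positive. Cells without activation were not analysed here, so no value below describes what activation does to a receptor.

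Receptors of this family share a plan of immunoglobulin-like domains outside the cell, 1 membrane-spanning segment and, in those that signal, a TIR domain inside the cell. A ligand-binding chain pairs with an accessory chain: Il1rap serves the receptors for IL-1, IL-33 and IL-36, and Il18rap serves the receptor for IL-18. Both TIR domains together recruit the adaptor Myd88 and the IRAK kinases. The family also carries its own brakes. Il1r2 binds IL-1 but has no TIR domain and is called a decoy, Sigirr dampens signalling, and shortened transcripts of Il1rl1 and Il1rap encode soluble proteins that hold the ligand or the ligand-bound receptor away from the cell. In T cells, Il1r1 is known from Th17 cells, Il1rl1 from Th2 and tissue regulatory T cells, the IL-18 receptor chains from Th1 cells and Il1r2 from activated regulatory T cells.

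In annotation GENCODE M21 on build GRCm38, 6 of the 8 receptor genes lie side by side on the plus strand of chromosome 1, within 477.6 kb. Their order is Il1r2 (ENSMUSG00000026073.13, 40074079 to 40125231), Il1r1 (ENSMUSG00000026072.12, 40225080 to 40317257), Il1rl2 (ENSMUSG00000070942.8, 40324610 to 40367562), Il1rl1 (ENSMUSG00000026069.15, 40429570 to 40465415), Il18r1 (ENSMUSG00000026070.15, 40465552 to 40500854) and Il18rap (ENSMUSG00000026068.11, 40515362 to 40551705). Only 136 bases separate the end of Il1rl1 from the start of Il18r1, so reads at that border may be shared between them. Il1rap lies on chromosome 16 (ENSMUSG00000022514.14, 26581704 to 26730117, plus strand) and Sigirr on chromosome 7 (ENSMUSG00000025494.8, 141091175 to 141100572, minus strand). Annotated genes of the Gm series overlap Il1r1, Il1r2, Il1rl2 and Il1rap, some of them on the other strand, and the sources used here do not say whether counting used strand. Those inside the chromosome 1 cluster had no count in any sample, except Gm16894, which is antisense to Il1r2 and had 4 counts in TCR+DMGV replicate 3.

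**Figure D1:**
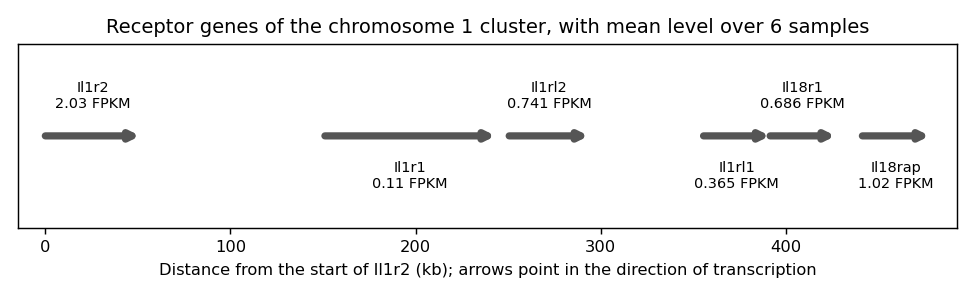
Map of the receptor cluster on chromosome 1, drawn to scale as distance in kb from the start of Il1r2, with each gene's mean level in FPKM over the 6 samples. The decoy gene Il1r2 at the left end had 2.03 FPKM, and Il1r1, its neighbour, had 0.110 FPKM.

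The soluble and membrane forms part within the coding sequence, and the sequences at these points are shown because they are where the proteins part. The counts of a form are not counts of reads across such a point but sums of the transcript estimates with that coding sequence. The lower-case bases are the last 15 that both transcripts share, and the capitals are the first bases that belong to 1 of them. For Il1rl1 the membrane form and the soluble form share 985 coding bases.
Il1rl1-202, membrane form of 567 residues: gaaggaaacaaccaaTTGATCACCGAAGCA
Il1rl1-205, soluble form of 337 residues: gaaggaaacaaccaaGTAAGGAGTGTCCCT
The last shared base of Il1rl1 is position 40446675 of chromosome 1 (GRCm38). Il1rl1-202 goes on at 40450075, in the next exon, whereas Il1rl1-205 reads on at 40446676 into what is intron for the membrane form, and its own bases open with the GT of the unused splice donor. The same holds for the short forms of Il1rap, Il18r1 and Sigirr. For Il1rap the forms share 1051 coding bases up to position 26701236 of chromosome 16.
Il1rap-201, membrane form of 570 residues: aggtgaaacagaaagTCATACCACCAAGGT
Il1rap-206, soluble form of 360 residues: aggtgaaacagaaagGTAATGGATGCACCG
A further form of Il1rap, known from neurons, parts later, after 1345 shared coding bases, and takes another last exon at position 26722356 in place of the one at 26714701.
Il1rap-201, the usual last exons: gcctgcctgggggaaTTGTCACAGATGAGA
Il1rap-202, form of 685 residues: gcctgcctgggggaaATACCGTGGAAGCAG
For Il18r1 the forms share 1102 coding bases up to position 40491216 of chromosome 1, and the short form stops soon after the membrane-spanning segment.
Il18r1-202, full form of 537 residues: acgagacactaacagATGGTAAAACATATG
Il18r1-203, short form of 372 residues: acgagacactaacagGTAATATGCTGCTG
For Sigirr the forms share 1066 coding bases up to position 141091803 of chromosome 7, read on the minus strand, and differ only at the end inside the cell.
Sigirr-201, form of 409 residues: ctgagggagacctggGTGTCCGTGGACCTG
Sigirr-206, form of 387 residues: ctgagggagacctggGTATGCTCACTGCAG

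Libraries held 37758725 to 43718867 gene counts, more than the read depth that the labels state. On a principal component analysis of all genes, TCR alone replicate 3 and TCR+DMGV replicate 1 stood apart from the other 4 samples on the first component (42.06 and 42.89 against -34.91 to -10.51, 32.2% of the variance). These samples come from both groups, and for several gene and transcript changes the value without them is given. Shares of forms were recomputed with single samples left out, not without both of these. The cells carried the markers of their label, with 801.6 to 1020 summed FPKM over 7 T cell genes, led by Trac (432 FPKM), against 3.79 to 5.41 over 5 B cell genes, led by Cd79b (3.85 FPKM). Macrophage and dendritic cell markers summed to 1.71 to 2.72 FPKM, with Csf1r the highest and Cd14, Clec9a and Siglech at 0, and the fibroblast and endothelial markers to 4.65 to 5.42 FPKM, nearly all of it Pecam1, which lymphocytes also express. Of the 7 neutrophil markers, 6 had no count in any sample, and of the 6 mast cell and basophil markers Fcer1a and Prss34 had none. The labels call the samples biological replicates but do not tie them to animals, so p-values measure the spread between these samples.

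All 8 receptors were detected, but at very unequal levels, and none passed the test for a change with DMGV. Per length, in FPKM (fragments scaled by gene length and library size), Sigirr stood at 12.9 on average over the 6 samples and Il1r1 at 0.110. Between them came Il1r2 (2.03 FPKM), Il1rap (1.22), Il18rap (1.02), Il1rl2 (0.741), Il18r1 (0.686) and Il1rl1 (0.365). Sigirr lay at the 83.2 percentile of all genes with any signal and Il1r1 at the 31.4 percentile. In that order Sigirr was above Il1r2 in all 6 samples with no overlap of their ranges, and the steps from Il18r1 to Il1rl1 and from Il1rl1 to Il1r1 were likewise free of overlap, the latter narrowly (lowest Il1rl1 sample 0.207 FPKM, highest Il1r1 sample 0.204 FPKM). The genes from Il1r2 to Il18r1 overlapped their neighbours, with Il1r2 above Il1rap in 5 of 6 samples and Il1rap above Il18rap in 3 of 6. This order holds for gene FPKM and differs by transcript FPKM. Il1rap-201 had 3.84, 2.72 and 2.66 with TCR alone and 2.64, 2.61 and 3.08 with TCR+DMGV. Il1r2-201 had 1.95, 2.03 and 4.23 and then 2.36, 2.35 and 2.62, below Il1rap-201 except in TCR alone replicate 3. Il1rap-201 was above Il18rap-201 in every sample.

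**Figure D2:**
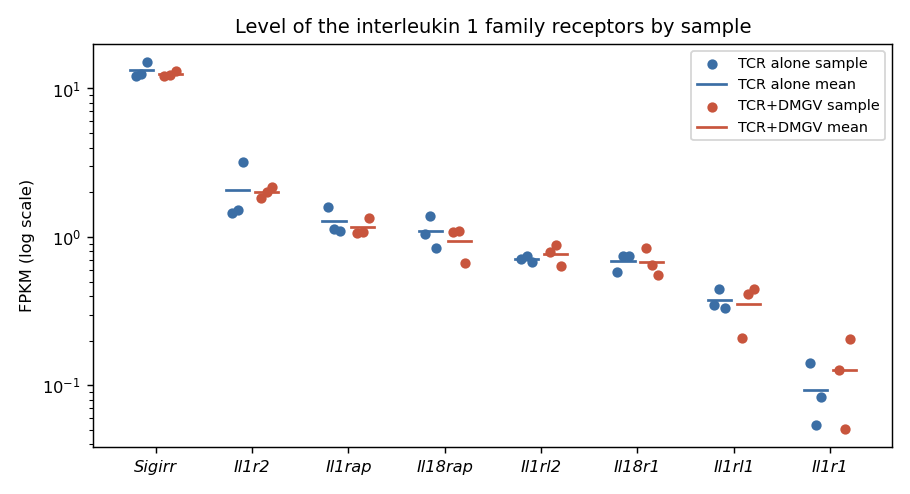
Level of each receptor gene in FPKM on a log axis, with 1 point per sample and the mean of each group of 3 as a bar. Sigirr lies above 12 FPKM in every sample and Il1r1 at or below 0.204, and the groups overlap for every receptor.

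The test of DMGV was edgeR's quasi-likelihood test on the gene counts, fitted over 14786 genes with Benjamini-Hochberg adjustment. All 8 receptors passed its filter on low counts. At an adjusted p under 0.05 it called 0 of the 8 receptors, where 0.0135% of all genes tested were called, and at an unadjusted p under 0.05 also 0, where 3.19% of all genes were. No receptor had groups that were free of overlap in counts scaled to library size (CPM), as 8.86% of all genes had. DESeq2 and limma on log2 FPKM also called 0 of the 8. The median log2 fold change (TCR+DMGV over TCR alone) was -0.039 over the receptors and 0.0024 over all genes, with 6 receptors below 0 and 2 above. Intervals below are 95% intervals of the log2 fold change, and in bulk RNA a smaller number of cells of a type and less RNA per cell cannot be told apart.

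**Figure D3:**
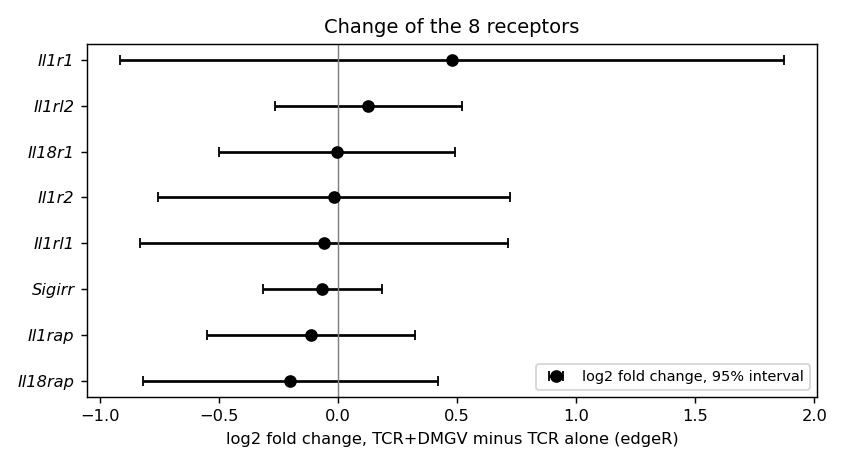
Log2 fold change of each receptor, TCR+DMGV over TCR alone, with its 95% interval from edgeR, n = 3 per group. Every interval spans 0, from -0.32 to 0.18 for Sigirr, the narrowest, to -0.92 to 1.87 for Il1r1, the widest.

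Il1r1, the chain through which IL-1 signals, was close to the limit of detection. Its counts were 38, 16 and 25 with TCR alone and 40, 16 and 60 with TCR+DMGV, or 0.0926 ± 0.0443 and 0.128 ± 0.0765 FPKM (SD, n = 3). The highest sample was TCR+DMGV replicate 3, and the groups overlapped. The log2 fold change was 0.48 (SE 0.59, interval -0.92 to 1.87, edgeR adjusted p = 0.999), the widest interval of the 8 receptors, at 16 to 60 counts per sample. The change was -0.061 without TCR+DMGV replicate 3. All counts lay on Il1r1-201, the full receptor of 576 residues.

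Il1r2, the decoy, was the second most abundant receptor by gene FPKM, though not by transcript FPKM. It had 1.45, 1.52 and 3.20 FPKM with TCR alone and 1.83, 2.00 and 2.16 FPKM with TCR+DMGV. TCR alone replicate 3 was higher than every other sample, and the remaining 2 TCR alone samples were lower than all 3 TCR+DMGV samples. The log2 fold change was -0.019 (SE 0.31, interval -0.76 to 0.72, edgeR adjusted p = 0.999). Leaving out TCR alone replicate 3 moved it to 0.43, and leaving out both samples that stood apart moved it to 0.50. Within each sample the decoy exceeded the signalling receptor Il1r1 by 10.3 to 39.2 times in gene FPKM. Neutrophils also carry much Il1r2, and their markers were at or near 0 here, with at most 0.0262 summed FPKM in any sample.

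Most Il1r2 counts fell on Il1r2-201, which encodes the decoy of 410 residues with a membrane-spanning segment. Its share of the gene's counts was 100, 98.5 and 98.2% with TCR alone and 95.3, 87.3 and 89.9% with TCR+DMGV, so the groups did not overlap. Most of the remainder in TCR+DMGV replicates 2 and 3 was Il1r2-204, an mRNA marked for nonsense-mediated decay, with 24 and 18 counts there and none in the other 4 samples, where 0 counts allow a share of up to 1.08 to 2.54%. The difference of -8.05 percentage points for the decoy form had p = 0.1 in the two-sided exact permutation test, the smallest p that 3 against 3 samples can give, and 0.475 after adjustment over the 19 receptor forms compared.

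Il1rap, the accessory chain for IL-1, IL-33 and IL-36, had 1.6, 1.12 and 1.10 FPKM with TCR alone and 1.06, 1.08 and 1.34 FPKM with TCR+DMGV. TCR alone replicate 1 was the highest and the groups overlapped. Over the groups the log2 fold change was -0.11 (SE 0.19, interval -0.55 to 0.32, edgeR adjusted p = 0.999). Its level exceeded that of the 3 signalling chains that bind these ligands in every sample. In gene FPKM the excess was 6.55 to 21.1 times for Il1r1, 2.53 to 5.14 times for Il1rl1 and 1.23 to 2.24 times for Il1rl2. The decoy Il1r2, which also binds IL-1, was above Il1rap by gene FPKM in 5 of 6 samples.

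The membrane form Il1rap-201 held 91.4 to 98.5% of Il1rap counts. The soluble form Il1rap-206, whose junction is printed above, had no segment that scored as membrane-spanning and was a small part of the whole. It had 24, 18 and 21 counts with TCR alone and 6, 17 and 5 with TCR+DMGV, or 3.13, 3.01 and 3.69% against 1.01, 2.81 and 0.719% of the gene. Every TCR+DMGV sample was below every TCR alone sample. The difference of -1.76 percentage points had p = 0.1 in the exact permutation test and 0.475 after adjustment, and the log2 fold change of the transcript itself was -1.25 (SE 0.59, edgeR unadjusted p = 0.0793). The interval of the transcript's change was -2.71 to 0.20. Without TCR+DMGV replicate 2, the highest of its group, the change was -2.001 (edgeR unadjusted p = 0.0136, adjusted p = 0.887). Leaving out any other single sample gave -0.99 to -1.38, with edgeR unadjusted p from 0.116 to 0.198. Without the 2 samples that stood apart it was -1.03 (edgeR unadjusted p = 0.269). The neuronal form Il1rap-202 had 2 to 13 counts per sample, and the form of 640 residues, Il1rap-203, had 0 counts in all 6. In TCR+DMGV replicate 3 alone, 42 counts were given to Il1rap-205, a transcript marked for nonsense-mediated decay.

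Il1rl1, the IL-33 receptor also called ST2, had 0.346, 0.444 and 0.332 FPKM with TCR alone and 0.207, 0.412 and 0.448 FPKM with TCR+DMGV. The lowest and the highest samples were both in the TCR+DMGV group. The log2 fold change was -0.059 (SE 0.33, interval -0.83 to 0.71, edgeR adjusted p = 0.999), and 0.14 without the 2 samples that stood apart. Mast cells and basophils also carry Il1rl1, and the summed level of their 6 markers was 0.111 to 0.207 FPKM with TCR alone and 0.147 to 0.184 FPKM with TCR+DMGV.

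The forms of Il1rl1 differed more between samples than its total did. The soluble form had 2, 0 and 5 counts with TCR alone and 18, 46 and 1 with TCR+DMGV, against 100, 144 and 101 and then 53, 94 and 141 for the membrane form. As a share of the gene the soluble form was 1.96% (95% Wilson interval 0.539 to 6.87), 0% (up to 2.08% at 0 counts) and 4.72% (2.03 to 10.6) with TCR alone. With TCR+DMGV it was 25.4% (16.7 to 36.6), 32.9% (25.6 to 41.0) and 0.704% (0.124 to 3.88), these intervals covering counting error only. TCR+DMGV replicates 1 and 2 were above all other samples, while TCR+DMGV replicate 3 was among the lowest, so the groups overlapped. The mean share was 2.23% ± 2.37 with TCR alone and 19.6% ± 16.8 with TCR+DMGV (SD, n = 3), a difference of 17.4 percentage points with p = 0.3 in the exact permutation test and 0.713 after adjustment. By share of transcript FPKM, which allows for transcript length, the soluble form was at 1.98, 0 and 7.38% with TCR alone. With TCR+DMGV it was at 58.4, 68.2 and 0.813%, above the membrane form in replicates 1 and 2 (41.6 and 31.8%). The groups overlapped by this measure too.

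**Figure D4:**
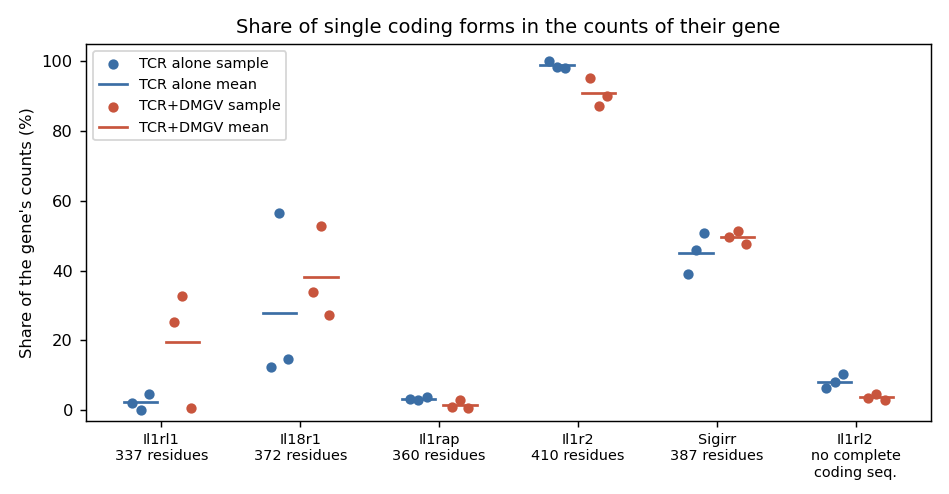
Share of each gene's transcript counts, in percent, held by 5 coding forms and by the Il1rl2 transcripts without a complete coding sequence, with 1 point per sample and a bar at each group's mean. The soluble form of Il1rl1 is at 25.4 and 32.9% in 2 of the 3 TCR+DMGV samples and at or below 4.72% in the other 4 samples.

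Il1rl1 is known for separate start sites, a distal one used in mast cells and Th2 cells and a proximal one used in fibroblasts. Il1rl1-205, a soluble form, is the only transcript counted here that begins at the distal start, and it held 0, 0 and 0 counts with TCR alone and 18, 46 and 0 with TCR+DMGV. Transcripts from the proximal region held 102, 144 and 106 counts and then 53, 94 and 142. The proximal sums include the soluble Il1rl1-203, with 2, 0 and 5 counts and then 0, 0 and 1. The annotation used here has no membrane form with the distal start, so whether the distal start was also used for one cannot be read from these counts.

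Both Il1rl1 promoters are shown since GATA factors are known to act on this gene in Th2 and mast cells. Each window runs from 250 bases before the start to 50 after it, 5′ to 3′ on the plus strand, from RefSeq on GRCm38.p6. Capitals mark GATA words, that is, GATA with A or T before it and A or G after it, searched on both strands, where words can overlap each other.
Il1rl1 distal promoter, chr1:40429320-40429619: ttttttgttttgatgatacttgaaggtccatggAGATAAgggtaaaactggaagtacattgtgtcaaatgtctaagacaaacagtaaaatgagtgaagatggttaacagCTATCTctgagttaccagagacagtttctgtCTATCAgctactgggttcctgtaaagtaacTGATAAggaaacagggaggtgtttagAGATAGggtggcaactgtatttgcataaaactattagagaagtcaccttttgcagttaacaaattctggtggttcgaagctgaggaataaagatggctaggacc
Il1rl1 proximal promoter, chr1:40439379-40439678: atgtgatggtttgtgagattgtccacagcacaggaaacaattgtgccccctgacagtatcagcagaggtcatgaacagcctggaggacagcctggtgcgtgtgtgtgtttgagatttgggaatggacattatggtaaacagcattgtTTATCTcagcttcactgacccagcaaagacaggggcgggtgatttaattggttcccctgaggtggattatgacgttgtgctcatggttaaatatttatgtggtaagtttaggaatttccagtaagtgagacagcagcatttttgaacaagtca
The distal window held 5 GATA words and the proximal window 1. Of all 32851 promoter windows of this length, 29.8% held at least 1. Among the receptors, 7 of the 8 genes were matched to 11 windows, and 4 of the 11 held one. A match describes the letters and is no sign that a factor was bound.

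Il18r1, the chain that binds IL-18, had 0.582, 0.743 and 0.741 FPKM with TCR alone and 0.841, 0.650 and 0.556 FPKM with TCR+DMGV. Both extremes were TCR+DMGV samples. Its log2 fold change was -0.0052 (SE 0.21, interval -0.50 to 0.49, edgeR adjusted p = 0.999). Its forms were unevenly spread, with the full receptor at 55.8, 37.6 and 83.5% of the gene's counts with TCR alone and 65.7, 47.1 and 52.4% with TCR+DMGV. The short form of 372 residues, which keeps the membrane-spanning segment but ends shortly inside the cell, was at 12.5, 56.5 and 14.6% and then 33.8, 52.9 and 27.4%. The spread within each group was as wide as the gap between the groups, and the difference of 10.2 percentage points had p = 0.6 in the exact permutation test. It fell to 2.499 points without TCR alone replicate 1, 3.57 without TCR alone replicate 3 and 2.76 without TCR+DMGV replicate 2, and was 24.5 points without TCR alone replicate 2. By share of transcript FPKM, which allows for transcript length, the full receptor was lower, at 34.7, 21.4 and 69.1% and then 45.0, 27.0 and 32.7%. A form of 267 residues without a membrane-spanning segment, Il18r1-205, ranged from 0 to 38 counts.

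Il18rap, the accessory chain for IL-18, had 1.05, 1.39 and 0.840 FPKM with TCR alone and 1.08, 1.09 and 0.663 FPKM with TCR+DMGV. The groups overlapped, with TCR alone replicate 2 highest and TCR+DMGV replicate 3 lowest. For Il18rap the log2 fold change was -0.20 (SE 0.26, interval -0.82 to 0.42, edgeR adjusted p = 0.999). Without the 2 samples that stood apart it was -0.46, while leaving out TCR alone replicate 2 moved it to 0.026 and leaving out TCR+DMGV replicate 3 to -0.0091. In every sample Il18rap exceeded Il18r1 in gene FPKM, by 1.13 to 1.87 times. Natural killer cells also carry the IL-18 receptor. The summed level of their 6 markers was 14.01 to 15.5 FPKM with TCR alone and 14.8 to 17.9 FPKM with TCR+DMGV, most of it Eomes (13.2 FPKM), which activated CD8+ T cells express as well. Of the 5 markers tested 0 were called, 4 were above 0 and the median log2 fold change was 0.46. Klre1, a natural killer cell receptor, had 5, 23 and 18 counts with TCR alone and 41, 36 and 47 with TCR+DMGV, a log2 fold change of 1.37 (edgeR unadjusted p = 0.0383, adjusted p = 0.999) with no overlap of the groups. Ncr1, which defines natural killer cells, had 8, 4 and 16 counts and then 37, 12 and 13, so its groups overlapped. Klrk1, at higher counts, went the other way. It had 661, 810 and 394 counts and then 415, 596 and 561, with a log2 fold change of -0.33 and overlapping groups. T cells were isolated magnetically in the study and checked for CD3. The part of natural killer cells in the values of Il18r1 and Il18rap was not tested.

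The full-length Il18rap-201 of 614 residues held 96.7, 98.0 and 71.8% of Il18rap counts with TCR alone and 77.2, 98.9 and 97.1% with TCR+DMGV. The 2 low values belong to TCR alone replicate 3 and TCR+DMGV replicate 1, the samples that stood apart over all genes. In these the rest, 28.2 and 22.8%, lay on transcripts without a complete coding sequence, most of it on Il18rap-202, a transcript that keeps an intron, with 69 and 70 counts there and at most 1 in the other samples. By share of transcript FPKM the incomplete transcripts made up 47.3 and 45.0% in these samples and 7.004 to 17.1% in the others.

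Il1rl2, the IL-36 receptor, had 0.714, 0.748 and 0.675 FPKM with TCR alone and 0.792, 0.878 and 0.641 FPKM with TCR+DMGV. TCR+DMGV replicates 1 and 2 were above all TCR alone samples and TCR+DMGV replicate 3 was below them. For Il1rl2 the log2 fold change was 0.13 (SE 0.17, interval -0.27 to 0.52, edgeR adjusted p = 0.999). Transcripts of Il1rl2 without a complete coding sequence made up 6.28, 7.95 and 10.4% of its counts with TCR alone and 3.38, 4.75 and 2.99% with TCR+DMGV. Every TCR+DMGV sample was below every TCR alone sample, with a mean difference of -4.51 percentage points (exact permutation p = 0.1, adjusted 0.475). The form of 574 residues made up the rest, so its share was higher by the same amount.

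Sigirr, the inhibitory receptor of the family, was the most abundant. It had 12.2, 12.5 and 15.01 FPKM with TCR alone and 12.1, 12.3 and 13.1 FPKM with TCR+DMGV, or 13.2 ± 1.55 and 12.5 ± 0.529 (SD, n = 3). TCR alone replicate 3 was the highest and the groups overlapped. The log2 fold change was -0.066 (SE 0.11, interval -0.32 to 0.18, edgeR adjusted p = 0.999), and 0.062 without the 2 samples that stood apart. Sigirr exceeded the shared accessory chain Il1rap by 7.62 to 13.7 times in gene FPKM in every sample. Such ratios between receptors hold for gene FPKM and differ by transcript FPKM.

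Counts of Sigirr were divided between both coding forms and transcripts without a complete coding sequence. The latter held 19.7, 17.6 and 23.2% with TCR alone and 14.4, 17.8 and 14.8% with TCR+DMGV, with overlapping groups. The form of 387 residues, which lacks the usual end inside the cell, held 38.9, 45.8 and 50.8% with TCR alone and 49.8, 51.4 and 47.7% with TCR+DMGV, and the form of 409 residues held 41.4, 36.6 and 26.0% and then 35.9, 30.8 and 37.6%. Neither form separated the groups. Sigirr-208, a transcript that keeps an intron, had 179, 155 and 315 counts with TCR alone and 117, 134 and 116 with TCR+DMGV, with no overlap. Its log2 fold change was -0.90 (SE 0.35, interval -1.77 to -0.026) at an edgeR unadjusted p of 0.0454, and its adjusted p over 38401 transcripts was 1.00. Without TCR alone replicate 3, the highest of its samples, the change was -0.57 with an unadjusted p of 0.124, and without both samples that stood apart it was -0.50 with one of 0.227.

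Over all receptors, 19 forms of 7 genes had enough counts to be compared, and 4 of them (21.1%) had groups without overlap, where 8.68% of the 25774 coding forms of all genes did. These 4 were the decoy form of Il1r2, the soluble form of Il1rap and both forms of Il1rl2, the last pair being a single contrast since they sum to the whole. The smallest adjusted p was 0.475. With 3 against 3 samples the exact permutation p cannot fall below 0.1, so no form could have reached an adjusted p under 0.05. Of the 18 receptor transcripts that edgeR could test, 0 passed an adjusted p under 0.05, where 0% of all transcripts did, and 1 (Sigirr-208) had an unadjusted p under 0.05, where 3.22% of all did. Counts per transcript are estimates that divide shared reads, and they can move between near-identical transcripts. Il1rl1-201, for example, held 141 counts in TCR+DMGV replicate 3, where Il1rl1-202 of the same protein held 0. Forms with the same coding sequence were therefore summed.

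The ligands of these receptors were low or without counts in the cells. Of 15 ligands, antagonists and binding proteins listed, 11 were matched. Of these, 6 had no count in any sample, among them Il33, and Il18 had 0 to 4. The highest was Il18bp, the soluble trap for IL-18, at 0.555 FPKM. Il1a, an IL-1 agonist, had 17, 14 and 18 counts with TCR alone and 34, 23 and 20 with TCR+DMGV. Its groups did not overlap, and its log2 fold change was 0.56 (SE 0.40, edgeR adjusted p = 0.999). Il1b, the other IL-1 agonist, had 18, 14 and 12 counts and then 13, 0 and 30. Its groups overlapped, and its log2 fold change was -0.084. Il1rn, the IL-1 receptor antagonist, had 102, 123 and 119 counts and then 62, 118 and 114.

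The genes that carry the receptors' signal were tested in the same fit. Of 25 signalling adaptors and kinases tested, 0 were called, with 14 above and 11 below 0, and the highest was Nfkbia, the NF-kB inhibitor, at 78.3 FPKM. Of 6 genes for ligand processing and receptor shedding, 0 were called, and the highest was Adam10, a protease that sheds surface receptors, at 32.3 FPKM. Lists for the T cell states in which these receptors are known were tested as well. Their highest genes were Ifng (421 FPKM) for Th1, Stat6 (62.6 FPKM) for Th2, Il2ra (155 FPKM) for regulatory T cells and Il17a (0.950 FPKM) for Th17. A list's highest gene is no measure of its state. In the same lists Gata3 had 12.1, Il4 2.44 and Foxp3 7.27 FPKM. None of the 6, 7, 7 and 6 genes tested in these lists passed the adjusted threshold. The neighbours of the chromosome 1 cluster had 3 genes tested and 0 called, with Map4k4 the highest at 12.1 FPKM.

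**Figure D5:**
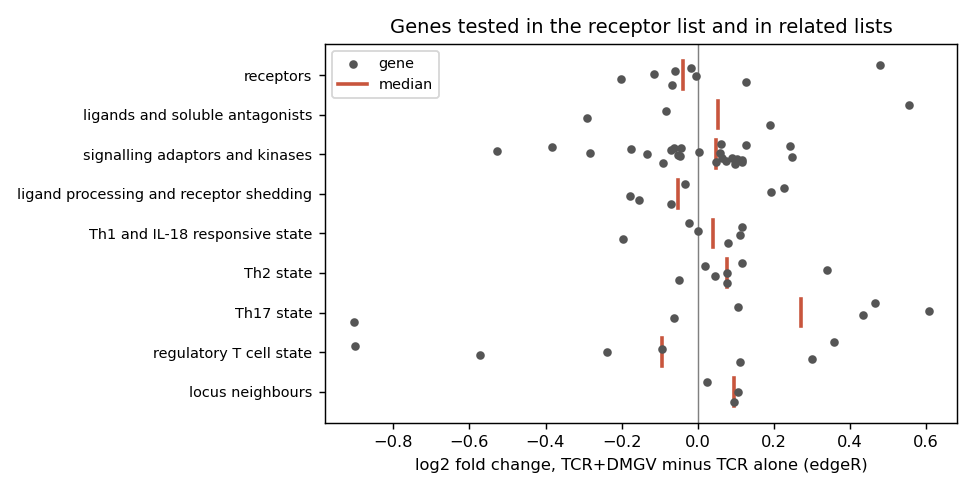
Log2 fold changes (TCR+DMGV over TCR alone) of the receptors and of the gene lists around them, with 1 point per gene tested and a bar at each list's median. The medians run from -0.094 for the regulatory T cell genes to 0.27 for the Th17 genes, and no gene in these lists passed an adjusted p of 0.05.

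In all, 64 genes around the receptors were tested. At an unadjusted p under 0.05 stood 3 of them (4.69%, against 3.19% of all genes), namely Il10, Foxp3, the regulatory T cell factor, with a log2 fold change of 0.36, and Tab1, a signalling adaptor, with one of -0.28. In addition, 9 (14.1%, against 8.86%) had groups without overlap. Their median log2 fold change was 0.053. The largest change among those with non-overlapping groups and at least 1 CPM was that of Il10, the anti-inflammatory cytokine, with 3.04, 3.29 and 3.11 FPKM with TCR alone and 1.84, 2.03 and 2.39 FPKM with TCR+DMGV. Its log2 fold change was -0.57 (SE 0.18, edgeR unadjusted p = 0.0157, adjusted p = 0.999). Of the 7 regulatory T cell genes tested, Foxp3 and Il10 among them, 3 were above 0 and 4 below. Ikzf2 had the largest change of the 7, -0.90 (edgeR unadjusted p = 0.0618), with overlapping groups.

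Genes whose level followed a receptor most closely were found for the 4 receptors with the most counts, by Pearson's r of log2 CPM over the 6 samples after each group's mean was removed, among 9041 genes. The highest were Lipe (r = 0.995) and Tmem134 (0.994) for Sigirr, and Polg (0.988) and Tshz1 (0.987) for Il1rap. For Il18rap they were Dusp16 and Itgav (both 0.997), and for Il1rl2 they were Hlcs (0.996) and Dnajc3 (0.989). With 6 points and so many genes, values of this size describe these samples only, and all points of a pair share library and depth.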

How the data were processed

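mRNA libraries (VAHTS mRNA-seq V2) of 6 samples were sequenced on an Illumina Xten. The authors filtered reads with SOAPnuke (1.5.2), aligned them with HISAT2 (2.0.4) and estimated levels with StringTie (1.2.3). The deposited gene and transcript counts are whole numbers without normalization, and the step from coverage to counts is not given in the sources used here. The deposited FPKM values, scaled by the authors to gene length and library size, were used for levels and in alternatives. The submitters' processing notes name mm9, but the files hold no coordinates, and 99.7% of their versioned gene identifiers are in GENCODE M21 (GRCm38), which gave names, positions and coding sequences.

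Gene and transcript counts were each fitted with edgeR (4.0.16, R 4.3.3: TMM, filterByExpr, quasi-likelihood test, no covariate). The same fit was also run on counts simulated from the means and dispersions of these data, and its recovery is not given here. Adjusted p-values cover all features tested, and called means an adjusted p under 0.05. A form is the set of a gene's transcripts with 1 coding sequence. Its share of the gene's counts was compared by exact permutation where every sample held at least 50 gene counts. A membrane-spanning segment was a window of 19 residues with mean Kyte-Doolittle hydropathy over 1.6 beyond residue 40. Alternatives used DESeq2 (1.42.0) and limma (3.58.1) on log2(FPKM + 1) and log2(FPKM + 0.1), other scaling, no filter, a replicate block, and each sample left out. The receptors and the lists around them were chosen with earlier results of these data known. Besides the receptors, the gene with the highest mean FPKM of each list was named, any gene called, and any with at least 1 CPM, groups without overlap and an absolute log2 fold change of at least 0.5. Any other gene named was chosen after its values were seen.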

Additional observations from a re-analysis of the deposited data

How the results depend on the processing

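At an adjusted p under 0.05, 0 of the 8 receptors were called under every alternative run. The number of genes called over the whole table was 2, and became 1 with scaling by library size alone, 1 without a filter on low counts, 14 with DESeq2, 0 with log2(FPKM + 1), 0 with log2(FPKM + 0.1) and 12 without the 2 samples that stood apart, a setting added after seeing the data. With 1 sample left out it was 0 to 5, and the number of transcripts called was 0 to 1 against 0. The replicate block gave 0 genes called and an Il1r2 change of 0.067. Same-numbered samples did not deviate together (r = -0.154, 0.121 and -0.148), so the numbers were not taken as pairs. The Il1r2 change, -0.019, was also above 0 with log2(FPKM + 1) (0.017), with log2(FPKM + 0.1) (0.049) and without the 2 samples that stood apart (0.50), where Il1rl1 was at 0.14 and Sigirr at 0.062. With 1 sample left out, the log2 fold change ranged from -0.061 to 0.87 for Il1r1, -0.23 to 0.43 for Il1r2, -0.27 to 0.22 for Il1rl1, -0.24 to 0.058 for Il1rap, -0.16 to 0.11 for Il18r1, -0.37 to 0.026 for Il18rap and -0.14 to 0.024 for Sigirr, and it stayed above 0 for Il1rl2 (0.016 to 0.23). The number of forms without overlap was 4, and 4 to 7 with 1 sample left out, the highest without TCR+DMGV replicate 3, where fewer samples make separation easier. The share differences that changed sign ranged, in percentage points, from -14.6 to 8.32 for full Il18r1, -12.9 to 3.03 for Il18r1-205, -6.25 to 9.17 for Il18rap-201, -9.17 to 6.25 for the rest of Il18rap, -0.822 to 1.504 for Il1r2-202 with Il1r2-203, -2.17 to 1.39 for Il1rap-201, -0.025 to 0.658 for Il1rap-202 and -4.21 to 3.47 for Sigirr of 409 residues, which was at -0.300 by FPKM share. Il1rap-205 ranged from 0 to 3.02. The soluble share of Il1rl1 was higher in TCR+DMGV by 10.8 to 26.9 points, and by 39.3 by FPKM share. The cause of these shifts was not tested. Depth limits Il1r1 most, with 16 to 60 counts per sample.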
